A study of Mus musculus with 4 samples.

Results

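Genes for the secreted products of the gastric chief cell (Pgc, Pga5, Cblif, Chia1 and Cym) and for its maturation (Bhlha15, Gper1 and Rab3d) were followed through injury and recovery of the mouse stomach corpus. They were taken by symbol, and all 8 were found once each among the 32227 genes of the deposited tables. Chief cells lie at the base of the corpus glands, where they store digestive zymogens in apical granules and release them into the lumen. In the mouse they are described as arising through mucous neck cells, which lie higher in the gland, and their secretory machinery is built up by the transcription factor Bhlha15 (also called Mist1). After loss of the acid-secreting parietal cells, chief cells are known to lose zymogens and take on neck mucins such as Muc6, a state described as pyloric-type or spasmolytic polypeptide-expressing metaplasia.

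The study made 4 single-cell RNA libraries by PIPseq, an emulsion capture of single cells that counts 3′ ends of transcripts, 1 for each group, from corpus epithelium of C57BL6/J mice labelled WT and 6 to 7 weeks old. The untreated group received PBS. The day 1 and day 3 groups were taken 1 and 3 days after a single oral dose of 350 mg/kg L635, a compound that kills parietal cells, and the AREG group was taken at day 3 after the same dose together with amphiregulin (AREG), a ligand of the EGF receptor. No source used here gives the dose, route or schedule of AREG or the number of mice behind each library, and all 4 libraries went through the same enzyme digestion with the kinase inhibitor Y27632, 5 min at 37 C, with 25000 cells loaded. With 1 library per group no difference between groups can be tested. Intervals below are 95% and cover counting error only.

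Libraries held 56007532 to 98893436 unique molecular identifiers (UMIs, 1 per captured molecule). Epithelial cells numbered 13858 in the untreated, 3899 in the day 1, 7966 in the day 3 and 12911 in the AREG library, and the median depth of cells was 2507 to 3014 UMIs. Levels are counts per 1000000 UMIs (CPM) of the summed cells. Free RNA, read from barcodes under 50 UMIs, carried the same genes and is given beside them. Fewer cells of a type and less RNA per cell cannot be told apart in such sums. Cells were clustered without the 8 genes, and a cluster is called chief-like, neck-like and so on from other markers only. Cluster 9 was chief-like (led by Pla2g1b, Clps, Try4 and Tmed6) and came mostly from the untreated library, with 1090 untreated, 4 day 1, 41 day 3 and 48 AREG cells. Cluster 4 was chief-like as well, but the neck genes Muc6 and Gkn3 stood among its 10 leading genes, and it held 149, 34, 1211 and 2568 cells in the same order. Cluster 7 was neck-like, with 2186, 38, 112 and 220 cells. At day 1, 3092 of the 3899 cells lay in cluster 6, which stayed unnamed (led by S100a6, Msln, Sprr1a and Krt7), and 61 lay in cluster 15, a neck-like group.

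The RefSeq promoter table, on the older build GRCm38.p6, had an entry for 7 of the 8 genes. In the 250 bases before each start, 4 short words were searched on both strands. The first was CATATG, an E-box form of the kind bound by basic helix-loop-helix factors. The second was another E-box form, written as CAGCTG from left to right. TATAAA is the core of a TATA box and TGACGTCA a cyclic AMP response element. In these 7 windows no match overlapped another. TATAAA was present in Pgc, Chia1, Cym and Gper1, and in 12.4% of 32851 promoters of the same length. The first E-box form was in none of the 7 windows and in 3.46% of all promoters, the second in none and in 13.0%, and the cyclic AMP element in none and in 1.55%. The 60 bases before the start of these 4 genes are printed on the strand of the gene, with the TATAAA word in capitals, because they show the feature that 4 members share. The word began 31, 43, 29 and 29 bases before the start of Pgc, Chia1, Cym and Gper1. The stretches lie at chr17:47726782-47726841 (+) for Pgc, chr3:106113322-106113381 (+) for Chia1, chr3:107221733-107221792 (-) for Cym and chr5:139423119-139423178 (+) for Gper1.
Pgc: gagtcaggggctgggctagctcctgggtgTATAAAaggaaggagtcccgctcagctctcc
Chia1: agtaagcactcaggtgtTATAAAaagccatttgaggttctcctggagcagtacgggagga
Cym: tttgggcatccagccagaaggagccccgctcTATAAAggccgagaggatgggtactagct
Gper1: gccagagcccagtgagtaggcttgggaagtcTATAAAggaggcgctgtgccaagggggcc
A match is a description of these letters. The 4 genes did not share 1 course over the libraries: Pgc, Chia1 and Gper1 were lower at day 1 than in the untreated library and Cym was higher.

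Over all epithelial cells, 6 of the 8 genes were at least 2-fold lower at day 1 than in the untreated library, Cym was 2-fold higher and Rab3d was neither. Among all 21596 genes with enough counts, 1.77% were at least 2-fold lower and 16% at least 2-fold higher in that comparison. The median log2 ratio of the 8 genes was -2.28, against 0.32 for all genes. At day 3, 5 of the 8 were at least 2-fold above day 1 and Cym was below it, with 3.19% of 21751 genes higher and 4.78% lower. The median of the 8 was 1.41, and that of all genes was -0.03. Day 3 and AREG are compared with the same untreated library, so the values of each comparison are given side by side and are not independent of each other.

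**Figure D1:**
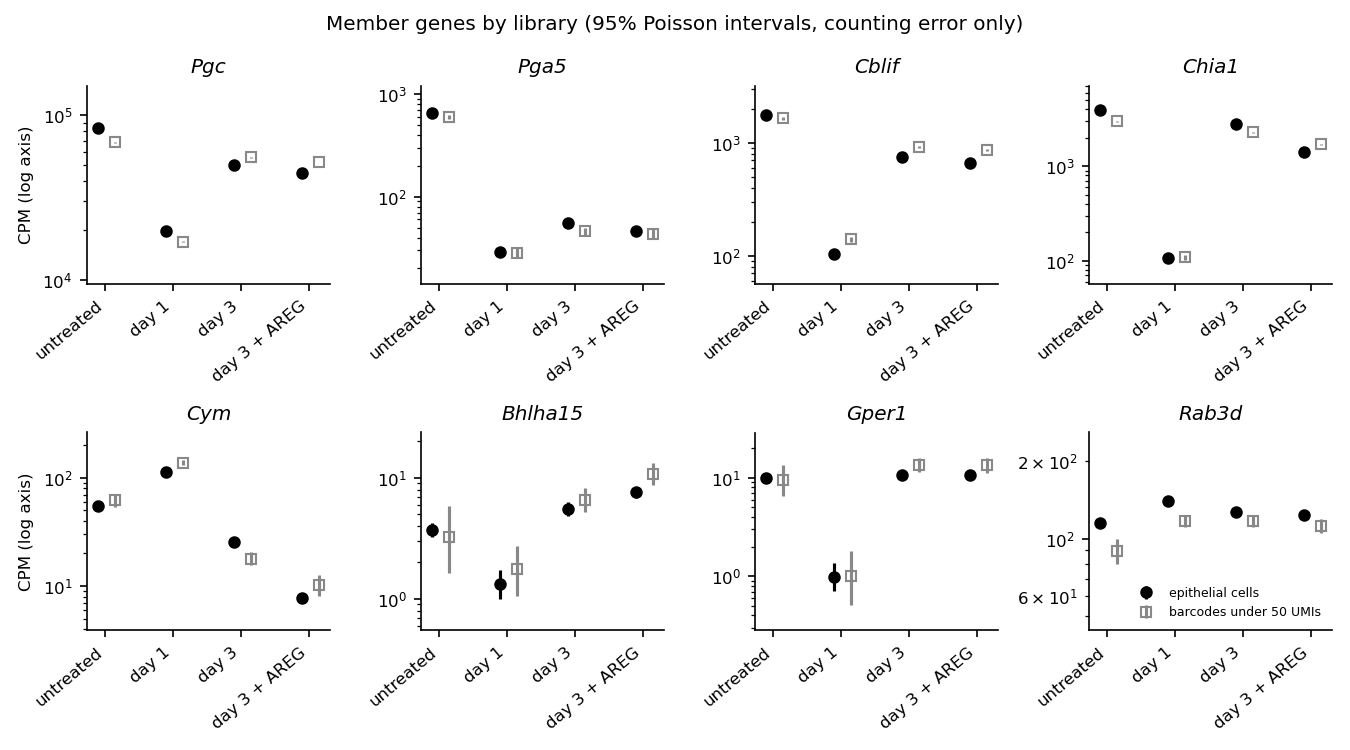
Level of each gene (CPM, log axis) in the 4 libraries. Filled points are the summed epithelial cells and open squares the barcodes under 50 UMIs, with 95% Poisson intervals. Pgc, Cblif and Chia1 were lowest at day 1 and higher again at day 3, Pga5 stayed far below its untreated level, Cym was highest at day 1, and Rab3d lay between 115 and 139 CPM in all 4.

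Pgc encodes pepsinogen C, a main zymogen of pepsin in the mouse. Its level was 83462 CPM in untreated, 19721 in day 1, 49870 in day 3 and 44791 in AREG cells. Day 1 was 4.23-fold below untreated (4.22 to 4.24), and day 3 was 2.53-fold above day 1. The free RNA held Pgc at 68357, 17076, 55410 and 52109 CPM, so the order of the 4 libraries was the same outside cells. Pgc was high in both chief-like clusters and in the neck-like one, with 309435 CPM in cluster 9, 233046 in cluster 4 and 192300 in cluster 7 of the untreated library. In the pit-like cluster 5 of the same library it was 4699 CPM, below the free RNA level.

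Pga5 encodes pepsinogen A5, a second class of pepsinogen. It stood at 664 CPM (657 to 670) in untreated, 28.8 (27.2 to 30.6) in day 1, 55.1 (52.9 to 57.4) in day 3 and 45.9 (44.1 to 47.8) in AREG cells. The 3 injured libraries lay close together and far below the untreated one. Day 3 remained 12.1-fold below untreated (11.6 to 12.6), the log2 ratio being -3.57. Only 0.942% of 21451 genes were at least 2-fold lower in that comparison, among them 3 of the 8, Pga5, Cblif and Cym. The AREG library was 14.4-fold below untreated for Pga5, and 4 of the 8 genes, Pga5, Cblif, Chia1 and Cym, were at least 2-fold lower in it, against 0.858% of 21450 genes.

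In the untreated library Pga5 was a neck-like rather than a chief-like gene by level. Cluster 7 held 3589 CPM (3549 to 3630) and 75% of all Pga5 UMIs of the epithelial cells, cluster 4 held 1939 CPM, and cluster 9 held 197 CPM (188 to 207), below the 604 CPM of free RNA. After each cell was thinned to 500 UMIs, 65.2% of cluster 7 cells and 11.2% of cluster 9 cells had a Pga5 UMI, and the pit-like class had 5.17%. Unthinned, the shares were 89.3% and 27.7% in clusters 7 and 9, whose median depths were 2694 and 4835 UMIs. Clps and Pla2g1b were 265299 and 226820 CPM in untreated cluster 9, which lowers the CPM and the thinned shares of its other genes. The part of these products in the Pga5 values was not tested. At Leiden resolution 2, a finer clustering, the neck-like class held 5508 CPM and the chief-like class 188 CPM. At day 3 the same cluster 7 held 185 CPM (139 to 240, 112 cells), and with AREG 298 CPM (254 to 348, 220 cells). Pga5 was thus lower in the sum of this cluster as well as over all cells. Other markers of cluster 7 also moved between these libraries: from untreated to day 3 and AREG, the 10 proliferation genes summed to 1175, 2340 and 1982 CPM, the 8 chief genes to 35664, 17973 and 23800, and the 6 smooth muscle genes to 5.27, 141 and 0. Their part in the Pga5 values was not tested. The Pga5 level per 1000 Pgc UMIs in that cluster was 18.7 in untreated, 1.57 in day 3 and 2.72 in AREG cells.

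Cblif encodes gastric intrinsic factor, the carrier of vitamin B12, which chief cells secrete in the mouse. It was 1767 CPM in untreated, 105 in day 1, 757 in day 3 and 664 in AREG cells. Day 1 was 16.9-fold below untreated (16.4 to 17.4), day 3 was 7.24-fold above day 1, and day 3 was still 2.33-fold below untreated (2.30 to 2.37). Free RNA held 1649, 140, 925 and 861 CPM. Nearly every untreated cluster 9 cell carried it, with 99.7% of cells and 9439 CPM (9376 to 9502), and the 10th and 90th percentiles of the cells were 5691 and 17881 CPM. Cluster 7 held 1710.5 CPM, but unevenly: 54.5% of its cells had no Cblif UMI, 172 (7.87%) were at 10000 CPM or more, and the 219 richest cells held 82.8% of the UMIs. In cluster 4 the level was 3767 CPM in day 3 and 3047 CPM in AREG cells, and 64.5% and 58.6% of those cells had a UMI.

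Chia1 encodes acidic mammalian chitinase, an enzyme that degrades chitin and is stored with the pepsinogens. It stood at 3911 CPM in untreated, 107 in day 1, 2832 in day 3 and 1425 in AREG cells. Day 1 was 36.6-fold below untreated (35.5 to 37.7). Day 3 was 26.5-fold above day 1. The AREG library was 1.99-fold below day 3 (1.97 to 2.01), a log2 ratio of -0.99 and just short of the 2-fold limit. In that comparison 0.227% of 21573 genes were at least 2-fold lower, Cym being the one member among them, and the medians of the 8 genes and of all genes were -0.17 and -0.03. Free RNA held 2978, 108, 2275 and 1703 CPM.

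Few cells carried most of the Chia1. Cells at 10000 CPM or more numbered 439 of 13858 (3.17%, 2.88 to 3.47) in untreated, 13 of 3899 (0.333%, 0.178 to 0.569) in day 1, 177 of 7966 (2.22%, 1.91 to 2.57) in day 3 and 194 of 12911 (1.5%, 1.3 to 1.73) in AREG. They held 93.5%, 75.6%, 90.3% and 83.4% of the Chia1 UMIs of their library. The 10 cells with most Chia1 UMIs alone held 19.0%, 79.6%, 44.3% and 28.9%. Those cells were deep, with median totals of 47007, 16885, 66344 and 26987 UMIs, and whether some of them were doublets was not measured. Without them Chia1 was 3190 CPM in untreated, 21.9 in day 1, 1600 in day 3 and 1019 in AREG cells. The log2 ratio of AREG to day 3 was then -0.65, that of day 1 to untreated -7.12, and that of day 3 to untreated -0.99 in place of -0.47.

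**Figure D2:**
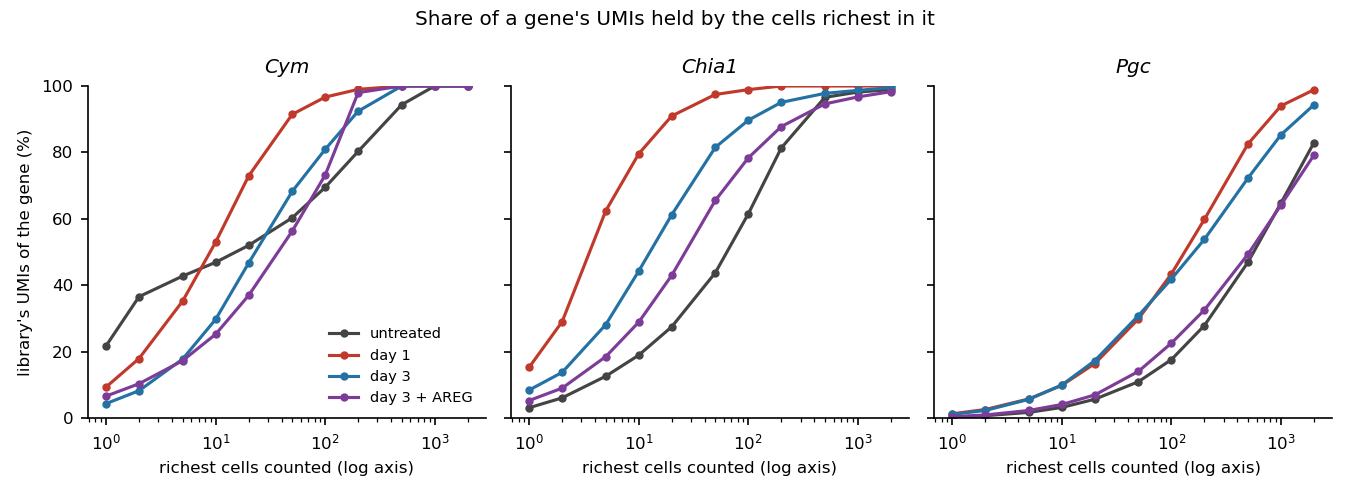
Percent of a library's UMIs of a gene (y) that the cells richest in it hold, against the number of such cells (x, log axis), for Cym, Chia1 and Pgc. The 10 richest cells held 79.6% of Chia1 at day 1 and 44.3% at day 3, whereas for Pgc they held 3.29% to 10.0% in the 4 libraries.

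Chia1 also split the chief-like cells of the untreated library. In cluster 9, 43.1% of cells were under 1000 CPM and 38.1% were at 10000 CPM or more, and the 109 richest cells held 66.4% of the Chia1 UMIs. Cblif, in contrast, was below 1000 CPM in 0.6% of the same cells. The 2 ends of the Chia1 range were compared in other chief products with Chia1 itself left out of the total. Cells at 10000 CPM or more and cells under 1000 CPM had 10012 and 9425 CPM of Cblif, 327467 and 315372 of Pgc, and 244834 and 213535 of Pla2g1b, a secreted phospholipase. Pnliprp2, a lipase-related gene, went the other way, with 631 CPM in the Chia1-rich and 1065 in the Chia1-poor cells, as did Try4, with 628 and 1175. Their median depths were 5676 and 3840 UMIs. They also differed in Pga5, at 16.0 CPM in the Chia1-rich and 488 in the Chia1-poor cells, and in Cym, at 274 and 66.9 CPM. In cells thinned to 500 UMIs, Pga5 was found in 3.97% of the 605 cells with a Chia1 UMI and in 20.2% of those without.

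**Figure D3:**
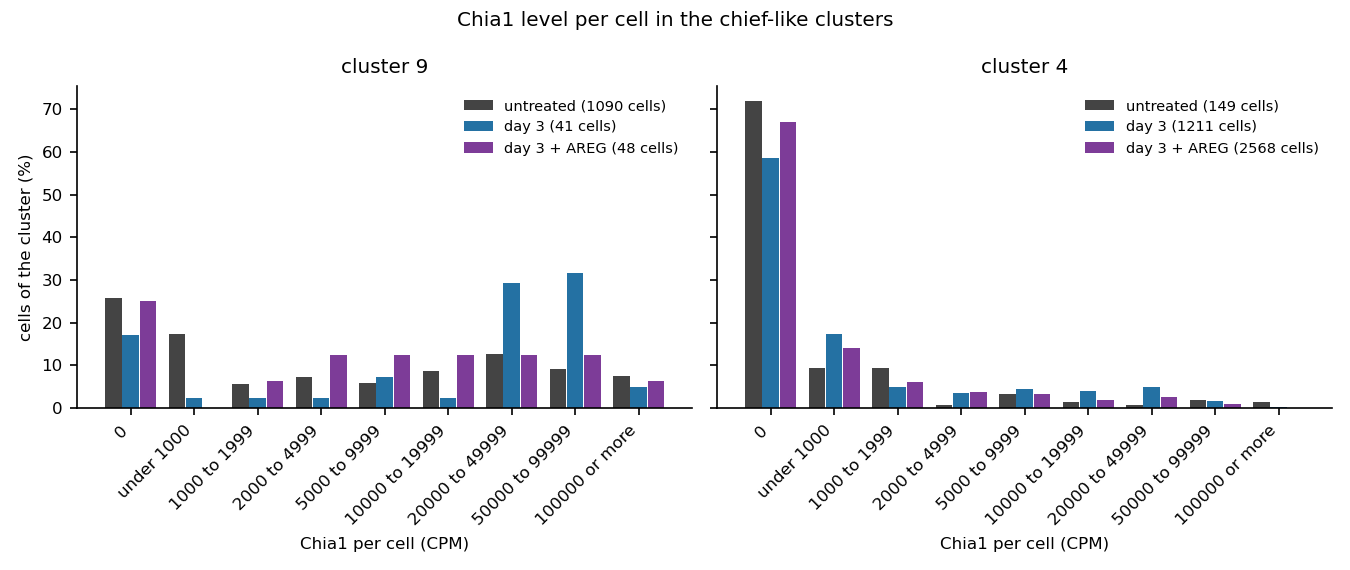
Percent of cells (y) by Chia1 level per cell (CPM, x) in the chief-like clusters 9 and 4, by library; in a cell of 500 to 1000 UMIs a single UMI already gives 1000 CPM or more. In cluster 9, untreated cells spread over the whole range, and in cluster 4 most cells had no Chia1 UMI in each library shown.

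In cluster 4, where chief and neck genes met, the cells richest in Chia1 held least of the neck mucin Muc6 at day 3. There, 134 of its 1211 cells were at 10000 CPM of Chia1 or more and had 29.0 CPM of Muc6, 58.0 of Tff2 and 6.93 of Pga5. The 919 cells under 1000 CPM had 1883, 6093 and 350 CPM of the same genes, and the 158 cells between had 322 CPM of Muc6. In untreated cluster 4, Muc6 showed no such order below 10000 CPM of Chia1. It was 912 CPM (584 to 1357) in the 20 cells from 1000 to below 10000 CPM of Chia1. In the 121 cells under 1000 it was 776 CPM (650 to 919). Tff2 and Pga5 did show the order, at 1824 and 1140 CPM in the 20 cells and 7166 and 2248 in the 121. The 8 untreated cells at 10000 CPM or more, under the 20 needed, were not summed. Day 3 Cblif was 8248 CPM in the 134 Chia1-rich cells and 1756 in the 919 Chia1-poor ones. Clps, encoding pancreatic-type colipase, was 230529 and 53468 CPM in the same day 3 sets. Thinned to 500 UMIs, Muc6 was found in 12.5% of day 3 cluster 4 cells with Chia1 and in 41.4% of those without, and in the AREG library in 9.62% and 25.9%. The pairing of Pga5 with Muc6 went the other way, since 69.1% of the 68 Pga5-positive cells and 31.7% of the others had Muc6. These shares describe cells of 1 library each.

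Chia1 of cluster 4 was 12443 CPM in day 3 and 5660 in AREG cells, a log2 ratio of -1.14. Over both chief-like clusters the ratio was -1.17, and 2 of the 8 genes, Chia1 and Cym, were at least 2-fold lower with AREG, against 1.02% of 15961 genes. Without the 10 Chia1-richest cells of each library the ratio of Chia1 was -0.92, and at resolution 2, where the chief-like class was smaller, it was -0.86. The share of chief-like cells with a Chia1 UMI at 500 UMIs was 28.1% in day 3 and 19.6% in AREG cells. In the pit-like class, which should lack the gene, it was 6.39% and 5.59%.

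The chief-like share itself depended on where cluster 4 was placed. It was 8.94% of epithelial cells in untreated, 0.975% in day 1, 15.7% in day 3 and 20.3% in AREG with cluster 4 counted, and 8.04%, 0.257%, 4.87% and 5.78% at resolution 2. Chief-like and neck-like cells together made up 24.7%, 3.51%, 17.1% and 22.0%. Values within chief-like cells of day 3 and untreated therefore come from different clusters, 4 and 9. There 64.9% of 15489 genes were at least 2-fold higher at day 3 and 0.852% lower, and the median log2 ratio of all genes was 1.41. Of the 8 genes, Rab3d was at least 2-fold higher and Cblif lower. Cblif was 2.37-fold lower at day 3 (3947 against 9367 CPM), but at resolution 2 its log2 ratio was -0.52 in place of -1.25. Chia1 changed sign, from -0.64 to 0.36, and so did Cym, from -0.41 to 0.51. The log2 ratio of Pga5 went from -0.24 to -3.35.

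**Figure D4:**
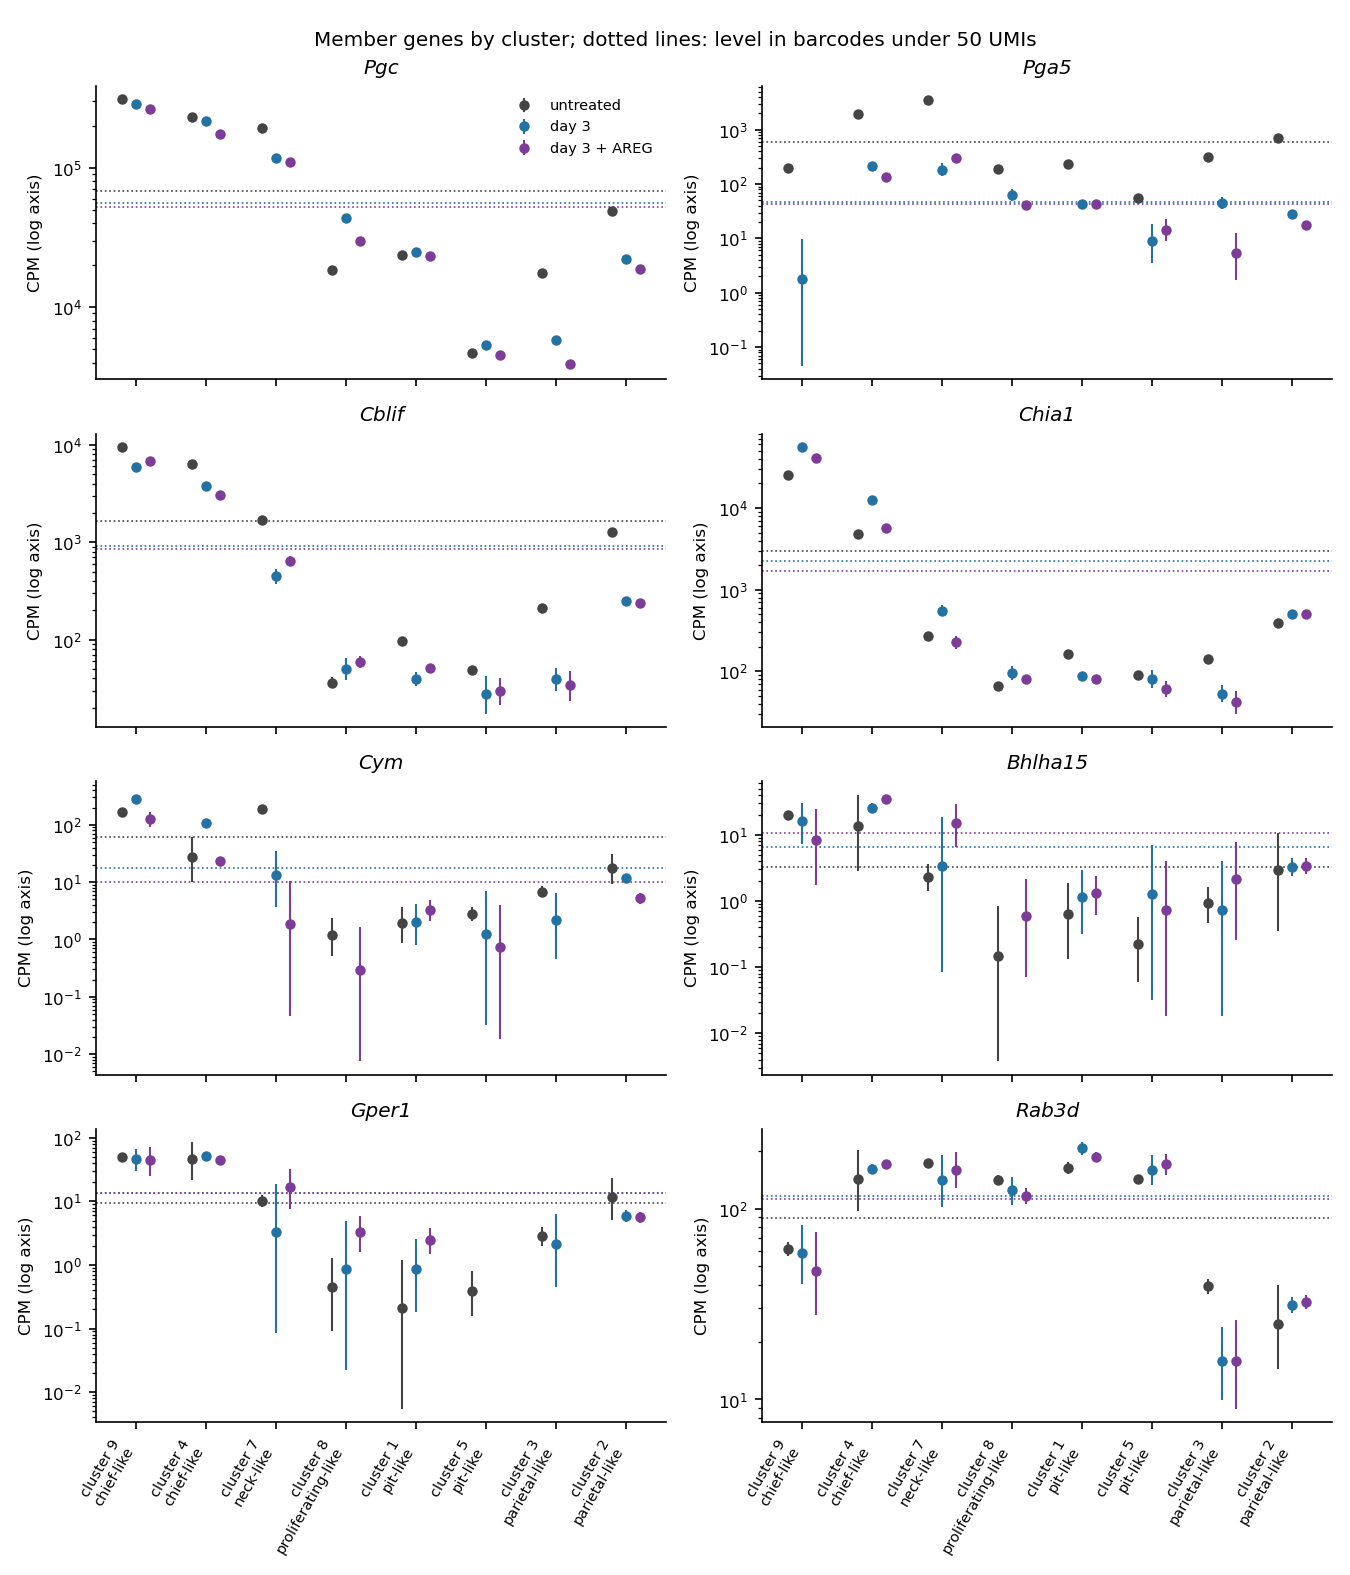
Level (CPM, log axis) of each gene in 8 clusters of the untreated, day 3 and AREG libraries, with 95% Poisson intervals; clusters without a UMI have no point, and dotted lines mark the free RNA of each library. Pgc, Cblif, Chia1, Bhlha15 and Gper1 were above that level in clusters 9 or 4, Pga5 was highest in clusters 7 and 4 of the untreated library, and Rab3d was lowest in the parietal-like clusters.

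Cym encodes chymosin, the milk-clotting protease of young mammals. It was 54.6 CPM (52.8 to 56.5) in untreated, 114 (110 to 117) in day 1, 25.8 (24.2 to 27.3) in day 3 and 7.77 (7.03 to 8.57) in AREG cells. Day 1 was 2.08-fold above untreated, day 3 was 4.41-fold below day 1, and the AREG library was 3.32-fold below day 3 (2.95 to 3.73). Free RNA showed the same order, with 61.8, 138, 17.9 and 10.2 CPM.

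Much of the Cym of the untreated and day 1 libraries came from a few cells. Cells at 10000 CPM or more numbered 5 in untreated, 26 in day 1, 1 in day 3 and 1 in AREG, and held 42.8%, 63.3%, 1.85% and 3.72% of the Cym UMIs. In 1 untreated cell 25.9% of all UMIs were Cym. The 5 untreated cells lay in the neck-like cluster 7, and the 26 day 1 cells lay in cluster 6 (23) and in cluster 15 (3). With Cym left out of the total, the 5 untreated cells had 18604 CPM of Pga5, against 664 over all cells, and 13891 CPM of Bpifb1, against 250. The 26 day 1 cells had 5913 CPM of Bpifb1, 6095 of Spp1 (osteopontin), 1827 of Dmbt1, 2248 of Chia1 and 2057 of Cblif, against 286, 394, 214, 107 and 105 over all day 1 cells. Gkn1, a surface mucous cell product, was 2000 CPM in them and 30680 over all day 1 cells. Bpifb1 had a UMI in 25 of the 26.

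Without these cells Cym was 31.3 CPM in untreated, 41.9 in day 1, 25.3 in day 3 and 7.48 in AREG cells. The log2 ratios of day 1 to untreated, day 3 to day 1 and day 3 to untreated were then 0.41, -0.71 and -0.30, each short of the 2-fold limit. That of AREG to day 3 was -1.63, as large as the -1.61 with them. At 500 UMIs, the share of Cym-positive cells with Chia1 differed between the chief-like clusters and libraries. In cluster 4 at day 3 it was 27 of 28, against 24.7% of the Cym-negative cells. With AREG it was 10 of 18 in that cluster, against 18.4%. In untreated and day 1 cluster 4 only 2 and 1 cells had Cym, of which 1 and 0 had Chia1. In cluster 9 of the untreated library it was 69 of 87, against 53.4%. The level of Cym in cluster 9 was 168 CPM in untreated, 287 in day 3 and 125 in AREG cells. The 11 endocrine markers of that cluster summed to 1086, 19761 and 134 CPM in the same order, and their part in the Cym values was not tested.

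Day 1 held 137 chief-like and neck-like cells, among them the 61 of cluster 15. Cluster 15 cells had 159413 CPM of Pgc, 5083 of Cblif, 3902 of Chia1 and 1606 of Cym. Free RNA held 17076, 140, 108 and 138 CPM of these. Muc6 was at 2178 CPM in cluster 15. Its Chia1 and Cym were carried by few cells: 50.8% of the 61 had no Chia1 UMI and 60.7% no Cym UMI. The 7 cells richest in Chia1 held 77.2% of it, and the 7 richest in Cym held 90.1%. Over the 137 cells together, Pgc was 200584 CPM, Cblif 4834 and Chia1 5008, against 252451, 5704 and 13090 CPM in the same classes of the untreated library. The log2 ratios were -0.33, -0.24 and -1.39, smaller than over all cells. The Chia1 value rests on few cells. Of the 10 day 1 cells with most Chia1 UMIs, 5 lay in cluster 15, 2 in cluster 4 and 1 in cluster 9. Pga5 was at 118 against 1842 CPM, with a log2 ratio of -3.95 here and -4.48 over all cells. These values come from different clusters, since the untreated cells of these classes lay mostly in cluster 7 (2186) and cluster 9 (1090), with 1 in cluster 15, and the day 1 cells in clusters 15 (61), 7 (38), 4 (34) and 9 (4). In these classes 2 of the 8 genes, Pga5 and Chia1, were at least 2-fold lower, where 6.91% of 15449 genes were, and Cym was higher, where 41.9% were. In cluster 6, which held most day 1 cells, Cblif was 22.0 CPM and Chia1 27.3, below the free RNA, and 93.4% and 97.6% of cells had no UMI of them. Pgc was 17047 CPM there, a sum carried by a minority: the median cell was at 7848 CPM, the 90th percentile at 41881 and the highest cell at 297315, and the 310 richest cells held 73.7% of the Pgc UMIs.

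Bhlha15 drives the granule-rich architecture of chief cells and was counted sparsely. It was 3.71 CPM (3.24 to 4.22) in untreated, 1.32 (0.990 to 1.74) in day 1, 5.53 (4.84 to 6.29) in day 3 and 7.58 (6.85 to 8.36) in AREG cells, from 52 to 393 UMIs. Free RNA held 3.27, 1.76, 6.60 and 10.8 CPM. Day 1 was 2.80-fold below untreated (2.06 to 3.86), with a log2 ratio of -1.02 once the pseudocount was added, just past the limit. AREG cells were 1.37-fold above day 3 (1.16 to 1.62). Unlike that of Cblif, its CPM in cluster 4 of the day 3 and AREG libraries was not lower than in untreated cluster 9. It was 19.8 CPM (17 to 22.9) in untreated cluster 9, 25.7 (21.9 to 30.0) in day 3 cluster 4 and 34.8 (31.0 to 39.0) in AREG cluster 4. Untreated cluster 4 held only 3 Bhlha15 UMIs, too few to compare the clusters within that library. In pit-like cells it was 0.3 to 0.8 CPM in these 3 libraries. Across chief-like cells the median log2 ratio of all genes to untreated was 1.41 at day 3 and 1.49 with AREG. The differences of Bhlha15 between these clusters were less than 2-fold, below that shift.

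Gper1 encodes a membrane receptor for estrogen, known as a chief cell marker in the mouse corpus. It was 10.1 CPM (9.28 to 10.9) in untreated, 0.994 (0.707 to 1.36) in day 1, 10.8 (9.85 to 11.9) in day 3 and 10.6 (9.75 to 11.5) in AREG cells. Day 1 stood apart, 10.1-fold below untreated (7.32 to 14.4), and the intervals of the other libraries overlapped. The CPM in chief-like clusters was also similar. It was 50.8 CPM (46.2 to 55.6) in untreated cluster 9, 51.4 (45.9 to 57.3) in day 3 cluster 4 and 44.8 (40.4 to 49.6) in AREG cluster 4. A similar CPM lay below the shift of all genes in chief-like cells, whose median log2 ratio to untreated was 1.41 at day 3 and 1.49 with AREG. Within cluster 4 at day 3 Gper1 was 88.2 CPM in the Chia1-rich cells and 34.3 in the Chia1-poor ones, and in cluster 9 of the untreated library 46.1 and 62.5.

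Rab3d encodes a small GTPase of secretory granules and is a known target of Bhlha15. By CPM its level was not highest in the chief-like cluster 9. It was 115 CPM in untreated, 139 in day 1, 127 in day 3 and 124 in AREG cells, and the ratio of day 1 to untreated was 1.21-fold (1.17 to 1.25). Cluster 9 held 61.7 CPM in the untreated library, below the free RNA at 89.2, while the neck-like class held 173, the pit-like class 148 and the proliferating-like class 141. Parietal-like cells held 38.3. A few secreted products filled much of untreated cluster 9, which lowers the CPM of its other genes. Clps and Pla2g1b were 265299 and 226820 CPM there, against 20768 and 14475 in cluster 7. The part of these products in the Rab3d values was not tested. In cluster 4 it was 162 CPM at day 3 and 172 with AREG. The 2.41-fold higher level in chief-like cells of day 3 than of untreated (153 against 63.6 CPM) was below the median shift of all genes there.

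The mix of the members in free RNA was set beside their mix in cells of the untreated library. Where 1 source of free RNA supplies several genes, their ratio is the same in each cell type. Per 1000 Pgc UMIs, the untreated free RNA held 43.6 Chia1, 24.1 Cblif and 8.84 Pga5. Pit-like cluster 1 held 7.01, 4.07 and 10.0, and proliferating-like cluster 8 held 3.53, 1.96 and 10.3. These cells thus had less Chia1 and Cblif for their Pgc than the free RNA, and about as much Pga5. Their Pgc was at 23540 and 18533 CPM, against 4699 in pit-like cluster 5 of the same library. Cluster 9 held 81.9 Chia1, 30.5 Cblif and 0.638 Pga5 per 1000 Pgc UMIs.

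Genes with a like pattern were read over 19 sums of a class in a library with at least 100 cells, which share depth, libraries and free RNA, so the correlations are descriptions. Pgc was most like Agap1 (r = 0.98) and Boc (0.96), Cblif most like Pla2g1b (0.98) and Pnliprp2 (0.97), and Chia1 most like Clps (0.97) and Pla2g1b (0.94). Pga5 was most like 2210404E10Rik (0.88) and Pglyrp1 (0.82). Its r with Chia1 was 0.35, while that of Cblif with Chia1 was 0.92. Rab3d had r of -0.08 to 0.31 with the other members.

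Other zymogen and lipase genes of chief cells followed Cblif more than Pga5. Of 8 listed, 6 were at least 2-fold lower at day 1 than in untreated cells, as were 1.77% of 21596 genes. The list's median log2 ratio was -3.76, against 0.32 for all genes. Try4, a trypsin gene whose reads can be shared with near-identical copies, was at -5.96, the lipase-related Pnliprp1 at -5.67 and Pla2g1b at -5.16, while Dmbt1 was higher, at 2.17. At day 3, 5 were above day 1 and 1 below, with a median of 3.26. Of 21751 genes, 3.19% were above and 4.78% below. With AREG none of the 8 was 2-fold from day 3, the range being -0.57 (Lipf) to 0.33 (Dmbt1). Of 15 genes of secretory maturation and the unfolded protein response, 2 were lower (Copz2 and Creb3l4, both -1.51) and 3 higher at day 1. Among all genes 1.77% were lower and 16% higher, so the count of higher genes was near the share of all genes. Xbp1, the central regulator of the unfolded protein response in secretory cells, was at -0.04. The list's median was 0.47, against 0.32 for all genes. Among 4 neck mucin genes, the log2 ratios of AREG to day 3 were -0.97 for Muc6, -1.06 for Gkn3, 0.74 for Tff2 and 0.13 for Aqp5.

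Markers of the pancreatic acinar cell, which shares Bhlha15 and several lipases with chief cells, were low but not absent. Their 10 genes summed to 63.1, 10.9, 49.3 and 23.9 CPM over the 4 libraries. These sums are not particular to chief-like cells, since the list includes Cel, which stood among the 10 leading genes of the endocrine cluster 10. In the untreated library the sum was 0 CPM in cluster 4, 3.52 in cluster 7 and 23.0 in cluster 9. In cluster 4 the day 3 sum was 126 CPM, of which 1 cell held 90%, and the AREG sum was 17.4 CPM. Cpa1 was at 0 in untreated and day 1 epithelial cells, which allows up to 0.0488 and 0.0764 CPM. The 6 neck markers summed to 8356 CPM in day 3 cluster 4, 358 in day 3 cluster 9 and 14700 in day 3 cluster 7, so cluster 4 lay between the others. Across libraries the neck sum of cluster 4 was 9797 CPM in untreated, 8463 in day 1 and 8571 in AREG cells, near the day 3 value. Single genes of the sum moved in opposite directions. From day 3 to AREG, Muc6 in cluster 4 went from 1212 to 556 CPM, Gkn3 from 3011 to 1215 and Tff2 from 3876 to 6581. Tff2 was 777 CPM at day 1.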

How the data were processed

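The deposited values are raw UMI counts per gene and barcode, unfiltered, per the file contents; the submitters' processing notes name the build mm39 (GRCm39). The sources used here name neither the aligner nor the counter. The deposited counts were summed over cells without normalisation by the authors, and CPM was computed from them. The 8 genes, the gene lists and the tests were chosen with earlier results of these data known.

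A barcode counted as a cell from 500 UMIs and 200 genes on, up to 50% mitochondrial UMIs. Libraries shared 0 to 3 cell barcodes. Scrublet (scanpy 1.11.5) marked 26, 0, 14 and 5 cells (0.187%, 0%, 0.175% and 0.0387%), which were removed. At such low shares Scrublet is judged to have failed, so doublets were not measured. Cells were clustered together, with 2000 variable genes without the 8 members, 40 principal components, 15 neighbours and Leiden resolution 1, into 17 clusters. A cluster was named from listed markers other than the members, needing at least 3 detected markers and 1 among its 50 leading genes. A name was kept only with a marker among the 10 leading genes, or 3 leading genes in common with such a cluster. This scoring was set after seeing the data, so a difference from the study's own classes may come from it.

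Sums were compared as log2 ratios of CPM with a pseudocount of 1 CPM, among genes with at least 10 UMIs over both libraries, and a gene counts as different from 2-fold. The pseudocount understates differences of low genes. Folds and their conditional exact binomial intervals are without it, levels carry exact Poisson and shares exact Clopper-Pearson intervals, and all cover counting error only. All 8 members were named, with genes of the lists and the 5 genes most like each member. The script was tested on simulated data. Other filters, clusterings, pseudocounts and denominators were tried. The RefSeq promoters were of the build GRCm38.p6 and were read from that table alone.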

Additional observations from a re-analysis of the deposited data

Results flagged for a closer look

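Barcodes from 50 to below 500 UMIs entered no comparison above, being too shallow to count as cells and too deep for the free RNA. In them 4 of the 8 genes lay above the interval of the untreated library in at least 1 treated library. Cym was 136 CPM (127 to 147) at day 1, against 65.5 (62.7 to 68.3) in untreated barcodes of that depth. Bhlha15 was 6.75 CPM at day 3 and 11.9 with AREG, against 3.45 (2.84 to 4.15). Gper1 was 12.4 CPM at day 3 and 13.4 with AREG, against 7.99 (7.06 to 9.02). Rab3d was 123 CPM at day 1, 118 at day 3 and 107 with AREG, against 80.8 (77.8 to 83.9). Intervals cover counting error only.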

How the results depend on the processing

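No paired analysis was possible because each group had 1 library. Over all epithelial cells, 204 of 384 log2 ratios under the alternatives were of member differences at least 2-fold in the main setting. Only these could count as reversed. Of them 0 reversed, and 190 stayed at least 2-fold in the same direction. Those that fell short were of Cym, Bhlha15 and Gper1, and the log2 ratio of Cym between day 1 and untreated was 0.69 without the most abundant genes in the denominator, where the median of all genes was 0.20 in place of 0.32, 0.78 in cells at or above the median depth and 0.996 at 1000 UMIs per cell. Within chief-like cells 37 of 146 were such differences, of which 0 reversed and 25 stayed, the others being of Cblif, Rab3d and Chia1. Ratios under 2-fold were not counted, and those of Chia1 and Cym between day 3 and untreated changed sign there at resolution 2. With a pseudocount of 10 CPM, 4 in place of 7 members were at least 2-fold different between day 1 and untreated. The shares of all genes given above are for a pseudocount of 1 CPM. None was computed for 10 CPM, so this count has no background beside it. The share of chief-like cells moved most. For untreated, day 1, day 3 and AREG cells it was 23.6%, 1.74%, 15.7% and 20.3% at resolution 0.5, and 8.04%, 0.257%, 4.87% and 5.78% at resolution 2. With the members among the clustering genes it was 7.54%, 0.153%, 3.52% and 3.08%. Without a mitochondrial limit it was 7.72%, 0.274%, 4.11% and 4.07%. It was 10.7%, 17.5% and 24.4% in untreated, day 3 and AREG at 1000 UMIs per cell, 10.4%, 19.1% and 26.3% at a 20% mitochondrial limit and 9.67%, 18.2% and 25.4% with all cells kept. With the highest Scrublet scores removed it was 9.86%, 2.70%, 18.6% and 25.8%. The cause of these shifts was not tested. The removal of the Cym-rich cells and of the 10 Chia1-richest cells, and the joint count of chief-like and neck-like cells, were added after seeing the data. Depth limits Bhlha15 and Gper1 most, since at day 1 they rest on 52 and 39 UMIs.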
